A study of Mus musculus with 8 samples.

Results

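The H19 and Igf2 imprinted locus was defined by position: H19, Igf2 and Ins2 on mouse chromosome 7 (build mm10) and a window of 250 kb around them. Every CTCF or Smc3 peak whose summit lay in the window was included, which gave 56 of the 254001 peaks in 4 lists. The tagged line C59 contributed 15 CTCF and 8 Smc3 peaks, and the wild type (WT) contributed 18 CTCF and 15 Smc3 peaks. Both lines are JM8.N4 mouse embryonic stem cells. C59 is a homozygous knock-in line in which CTCF carries FLAG and Halo tags (FLAG-Halo-CTCF) and the cohesin subunit Rad21 carries SNAPf and V5 tags (Rad21-SNAPf-V5), and WT cells carry neither. Proteins were located by chromatin immunoprecipitation and sequencing (ChIP-seq), with the same CTCF antibody in both lines and the same Smc3 antibody in both lines. Each line and antibody gave 1 library, so nothing below could be set against a spread between replicates and no test between the lines was made. C59 is 1 clone, so the effect of the tags, the clone and the single library cannot be told apart.

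H19 is a noncoding RNA expressed from the maternal chromosome, and Igf2, which encodes insulin-like growth factor 2, is expressed from the paternal one. Both are served by shared enhancers on the far side of H19. Between the genes, a few kb upstream of H19, lies the imprinting control region, which is methylated on the paternal chromosome. CTCF binds its unmethylated maternal copy and insulates Igf2 from the enhancers, and methylation of its sites keeps CTCF off the paternal copy. Cohesin, the ring complex that holds Smc3 and Rad21, gathers at CTCF sites and forms chromatin loops. Peak lists carry no allele, methylation or expression values, so the parental copy behind a peak, and the embryonic stem cell label itself, were not checked here.

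H19 (gene ID 14955) spans 142575530 to 142578146, Igf2 (16002) spans 142650768 to 142666816 and Ins2 (16334), an insulin gene, spans 142678656 to 142679726. All 3 are transcribed towards lower coordinates, so the H19 start was taken as 142578146. Positions below are distances of peak summits from that start in kb, positive towards Igf2 and Ins2. The antisense RNA Igf2os overlaps Igf2. Mrpl23, a mitochondrial ribosomal protein gene, Nctc1, a noncoding RNA gene, and Tnnt3, a skeletal muscle troponin gene, lie at negative distances with Prr33. The noncoding RNA gene Gm33148 lies between H19 and Igf2, and Gm39116, also noncoding, lies beyond Ins2. The microRNA genes Mir675 and Mir483 lie inside H19 and Igf2.

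Promoter windows of 300 bases from RefSeq (GRCm38.p6, the mm10 assembly) were matched for 6 of the 12 annotated genes of the locus. Igf2 matched with 4 windows, and H19 and Ins2 were not matched. Sequences were searched on both strands for a long CTCF motif of the type known from the H19 control region, and for the shorter CTCF cores AGGNGGC and GGNGGCAG, which can overlap each other and the long motif. GGGGGCGC, another form of the core, was added after the sequences were seen. These patterns stood in 0.0365%, 29.4%, 12.6% and 3.34% of 32851 promoter windows of the genome. The 3 windows below are shown because the strongest CTCF site between H19 and Igf2 lies on the first, and because the other 2 are the Igf2 promoters nearest to peaks seen in WT alone. Each reads 5′ to 3′ on the strand of its gene, and capitals mark pattern matches.
Gm33148 at chr7:142610569-142610868, plus strand: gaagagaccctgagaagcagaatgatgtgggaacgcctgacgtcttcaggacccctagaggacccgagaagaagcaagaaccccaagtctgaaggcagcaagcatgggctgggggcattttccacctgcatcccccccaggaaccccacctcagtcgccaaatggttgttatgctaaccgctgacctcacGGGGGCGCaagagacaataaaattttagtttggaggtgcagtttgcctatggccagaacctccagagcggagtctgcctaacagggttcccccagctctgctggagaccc
Igf2 at chr7:142658755-142659054, minus strand: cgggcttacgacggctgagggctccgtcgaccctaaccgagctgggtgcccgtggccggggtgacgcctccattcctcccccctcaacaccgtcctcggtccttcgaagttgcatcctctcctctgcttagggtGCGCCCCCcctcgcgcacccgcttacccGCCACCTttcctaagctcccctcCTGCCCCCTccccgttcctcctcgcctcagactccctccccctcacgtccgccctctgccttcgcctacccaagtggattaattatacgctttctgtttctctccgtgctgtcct
Igf2 at chr7:142661222-142661521, minus strand: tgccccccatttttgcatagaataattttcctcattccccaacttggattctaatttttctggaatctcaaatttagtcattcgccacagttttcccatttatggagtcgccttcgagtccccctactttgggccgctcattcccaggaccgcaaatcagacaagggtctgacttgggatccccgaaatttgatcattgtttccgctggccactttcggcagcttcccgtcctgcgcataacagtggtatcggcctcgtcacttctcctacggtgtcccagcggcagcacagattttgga

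The Gm33148 window was the only one of 13 in the locus to hold CTCF summits of both lines. Its GGGGGCGC (142610759 to 142610766, plus strand) lay with its middle 21 bp from the C59 summit and 23 bp from the WT summit. The Gm33148 window held neither the long motif nor AGGNGGC or GGNGGCAG, and its only match was the pattern added after the sequences were seen. Among the 1744 promoter windows of the genome with CTCF summits of both lines, 17.8% held GGGGGCGC and 0.344% held the long motif. AGGNGGC stood in 55.6% of these windows and GGNGGCAG in 20.2%. In the Igf2 window at 142658755, AGGTGGC (142658886 to 142658892), GGGGGCGC (142658913 to 142658920) and the overlapping AGGGGGC and GGGGGCAG (142658861 to 142658869), all read on the plus strand, lay outside any peak. That window ended 38 bp short of a WT CTCF peak. The Igf2 window at 142661222 held none of the patterns and lay 232 bp from a WT Smc3 peak. A match is a description of letters and does not show a bound site.

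The peaks fell into 19 places, counting overlapping peaks of the 4 lists as 1 place. CTCF and Smc3 of both lines stood at 8 of them, CTCF of both lines with Smc3 of WT alone at 4, and CTCF of both lines with no Smc3 at 3. WT CTCF alone stood at 2 places, WT CTCF with WT Smc3 at 1, and WT Smc3 alone at 1. No place was seen in C59 alone. All 15 C59 CTCF peaks shared at least 1 bp with one of WT, against 97.1% of the whole C59 list, and 15 of 18 WT CTCF peaks overlapped a C59 one (83.3%, exact 95% Clopper-Pearson interval 58.6 to 96.4), against 79.8% of the whole WT list. All 8 C59 Smc3 peaks overlapped a WT Smc3 peak, against 98.1%, and 8 of 15 WT Smc3 peaks overlapped a C59 one (53.3%, 26.6 to 78.7), against 52.9%. The shares of the locus thus lay near those of the whole lists in both directions. Intervals here and below cover counting error only.

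The locus held more peaks than most stretches of its size. Autosomes were divided into stretches of 250 kb, 9837 to 9849 of them depending on the list. Of these, 19.4% held at least as many C59 CTCF peaks, 19% as many WT CTCF peaks, 7.09% as many C59 Smc3 peaks and 5.71% as many WT Smc3 peaks. In the same order the median stretch held 5, 6, 2 and 3 peaks. CTCF peaks of the locus were of above average strength, with a median fold enrichment of 18.7 in C59 and 14.1 in WT, against 11.2 and 9.5 over each whole list. For Smc3 the medians were 5.54 in C59 and 5.04 in WT, against 5.66 and 5.8. Fold enrichment is the authors' own ratio of pileup to local background at a summit and describes strength within a list.

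**Figure D1:**
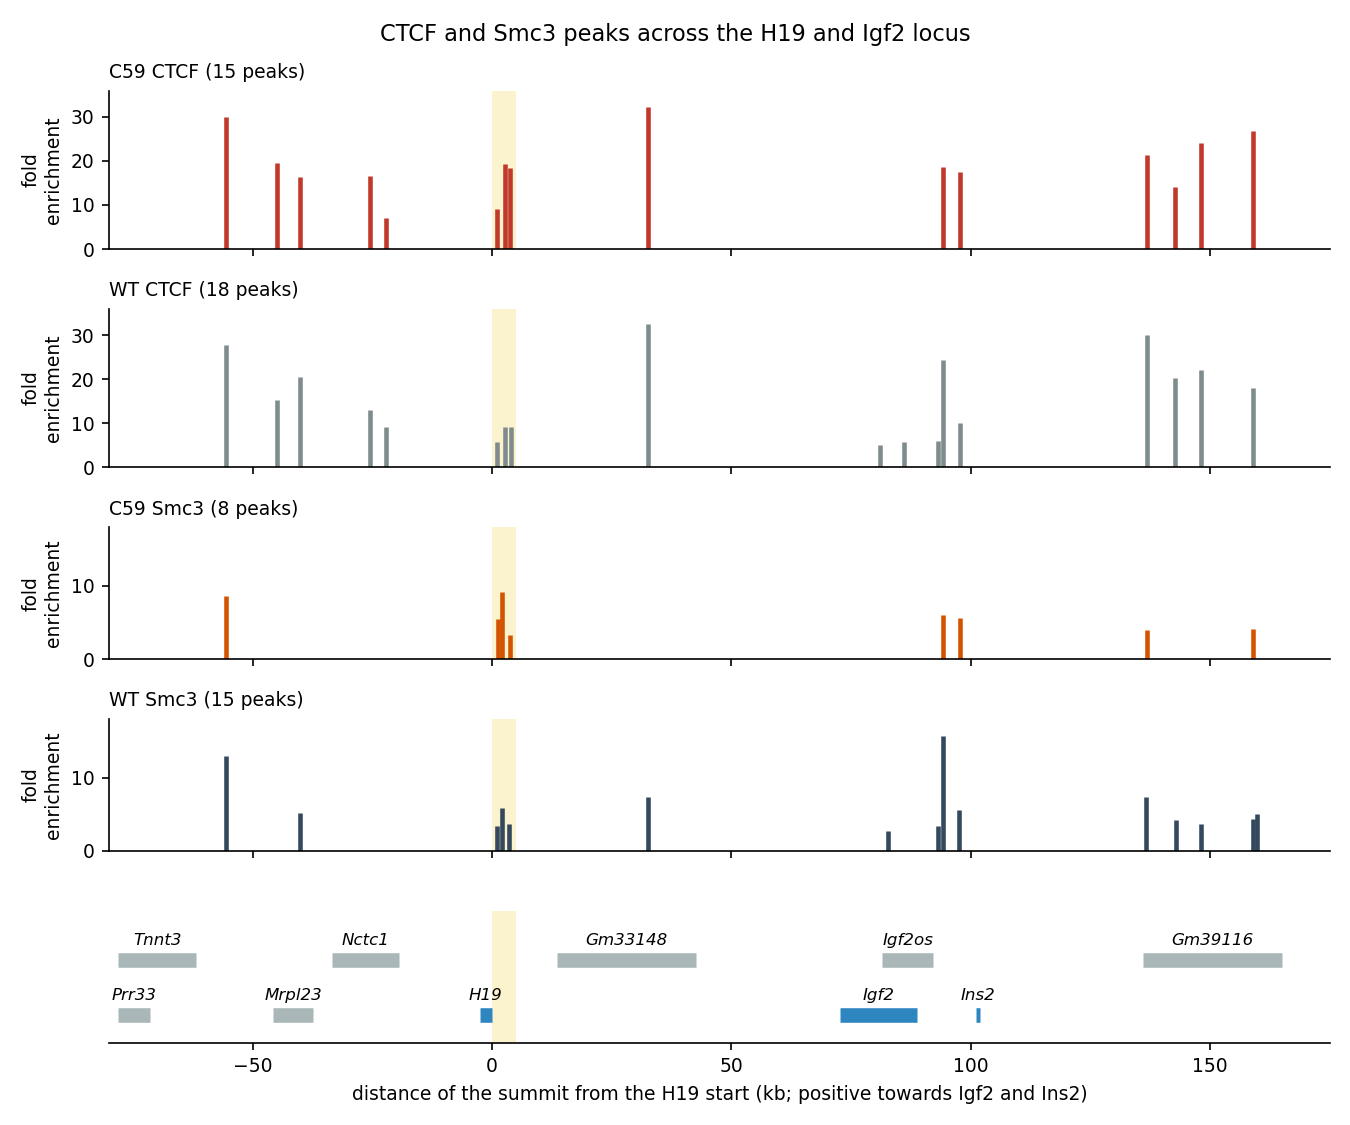
Fold enrichment (vertical axis) of every peak summit by distance from the H19 start in kb (horizontal axis), in C59 CTCF, WT CTCF, C59 Smc3 and WT Smc3, with gene spans beneath. The shaded 5 kb upstream of H19 hold 3 peaks in every list, and the Igf2 and Igf2os bodies hold peaks in the WT lists only.

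The control region side of H19 carried CTCF and Smc3 in both lines. Within 5 kb upstream of H19 there were 3 places, with CTCF summits at 1.11, 2.64 and 3.81 kb in C59 and at 1.13, 2.66 and 3.87 kb in WT. All 3 also held Smc3 in both lines, whereas over each whole list 30% of C59 CTCF peaks and 44.3% of WT CTCF peaks did. The borders of the control region are not annotated in the tables used here. None of the 3 lay within 1 kb of H19 itself, and the H19 body held no summit in any list.

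Over the CTCF summits upstream of H19 there were more fragments in C59 than in WT at every place. Pileups were read as fragments, the extended reads that cover a summit. The place nearest to H19 (142579014 to 142579457) had 42 CTCF fragments in C59 (exact 95% Poisson interval 30.3 to 56.8) and 35 in WT (24.4 to 48.7). The middle place (142580028 to 142581217) had 100 CTCF fragments in C59 (81.4 to 122) and 64 in WT (49.3 to 81.7). The farthest place (142581554 to 142582303) had 86 CTCF fragments in C59 (68.8 to 106) and 47 in WT (34.5 to 62.5). The intervals of the lines overlapped widely at the first place and barely at the second, and did not overlap at the third. Fold enrichments at these places were 9.07, 19.4 and 18.3 in C59, and 5.79, 9.17 and 9.12 in WT.

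Smc3 at the same places also had more fragments in C59. The place nearest to H19 had 31 Smc3 fragments in C59 (21.1 to 44) and 26 in WT (17 to 38.1). The middle place had 64 Smc3 fragments in C59 (49.3 to 81.7) and 29 in WT (19.4 to 41.6). The farthest place had 24 Smc3 fragments in C59 (15.4 to 35.7) and 18 in WT (10.7 to 28.4). Its Smc3 summits lay 225 bp apart between the lines, so its fragments and their ratio compare different positions. At the nearest and middle places the Smc3 summits of the lines were 43 bp and 19 bp apart. Only at the middle place did the intervals of the lines stand clear of each other. Fold enrichments of Smc3 were 5.46, 9.16 and 3.25 in C59, and 3.47, 5.81 and 3.68 in WT, so that at the farthest place the fold did not follow the fragments. The background implied there was 5.01 in C59 and 4.16 in WT.

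**Figure D2:**
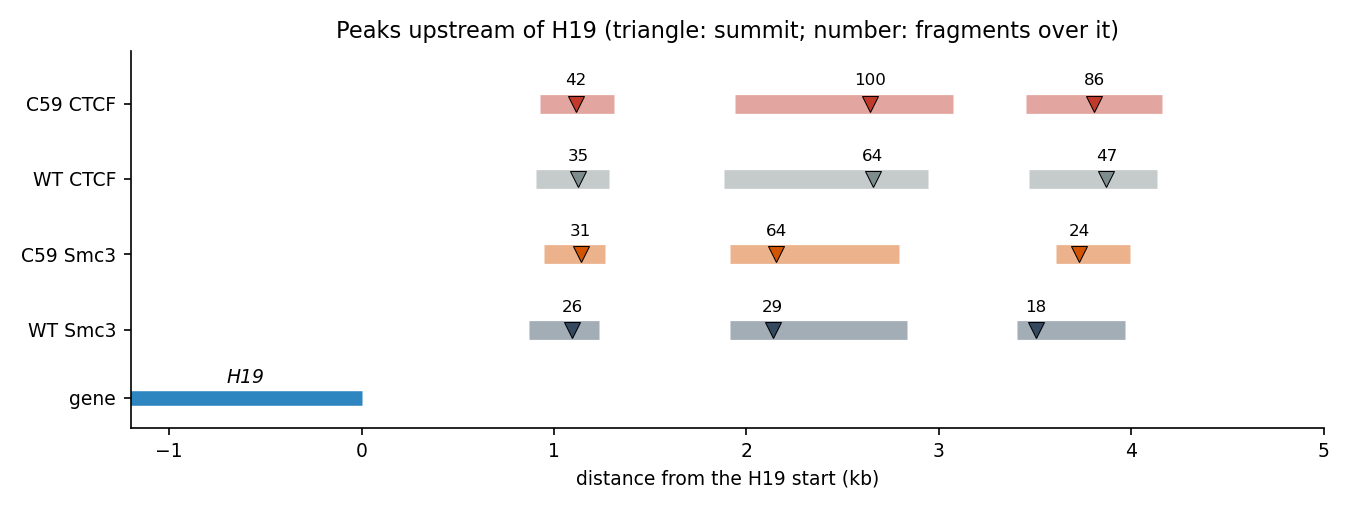
Extent (bars), summit (triangles) and summit fragments (numbers) of each peak upstream of H19, by distance from the H19 start in kb, in the C59 and WT lists of CTCF and Smc3. The middle place has 100 CTCF and 64 Smc3 fragments in C59, against 64 and 29 in WT, and its Smc3 summits lie nearer to H19 than its CTCF summits.

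The rest of the genome showed the opposite balance. Peaks of the lines were paired when each was the other's best overlap, which gave 78537 CTCF pairs and 24957 Smc3 pairs. The median ratio of C59 to WT fragments over all pairs was 0.846 for CTCF (central 90% from 0.524 to 1.2) and 0.76 for Smc3 (0.5 to 1.2). On chromosome 7 the medians were 0.841 and 0.723. These ratios contain the depth of each library and the strength of each immunoprecipitation, so a place is described by its ratio against those of all pairs.

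Upstream of H19 the 3 CTCF places summed to 228 fragments in C59 and 146 in WT, a ratio of 1.56 (1.26 to 1.94). The other 12 CTCF pairs of the locus summed to 1371 fragments in C59 and 1599 in WT, a ratio of 0.857 (0.797 to 0.922), and ranged from 0.72 to 0.987. For Smc3 the 3 places summed to 119 fragments in C59 and 73 in WT, a ratio of 1.63 (1.21 to 2.21). The other 5 Smc3 pairs summed to 233 fragments in C59 and 340 in WT, a ratio of 0.685 (0.578 to 0.812), and ranged from 0.561 to 0.9. Upstream of H19 all 3 CTCF and all 3 Smc3 ratios were thus above 1, and elsewhere in the locus all 12 CTCF and all 5 Smc3 ratios were below 1. Most pairs of the genome were below 1 as well, so the ratios elsewhere in the locus were the usual case. A ratio of at least 0.987 was reached by 16861 of 78537 CTCF pairs, and one of at least 0.9 by 6546 of 24957 Smc3 pairs. Without the middle place the Smc3 ratio was 1.25 (0.826 to 1.9), an interval that includes 1. Pairs within 20% of the same WT Smc3 fragments had median ratios of 1.04 at the nearest and 1.36 at the farthest place. The farthest place, with a Smc3 ratio of 1.33, was thus not above pairs of like level. The nearest place, with 1.19, was above their median, which its interval (0.685 to 2.09) included. The 5 kb stretch was drawn with the peak positions known.

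**Figure D3:**
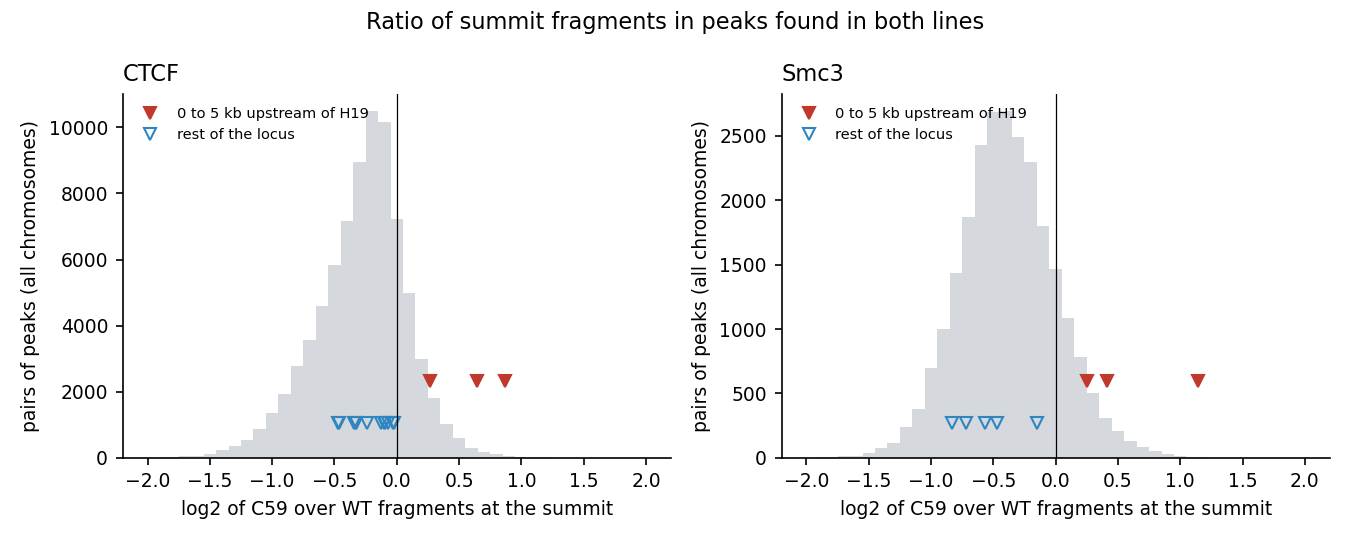
Number of CTCF (left) and Smc3 (right) peak pairs by log2 of the ratio of C59 to WT summit fragments, over all chromosomes (grey). Triangles mark the pairs of the locus, and the filled ones, upstream of H19, all lie above 0, while the open ones all lie below it.

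By CTCF ratio, the middle place (1.56, interval 1.13 to 2.17) was matched or exceeded by 440 of all 78537 pairs, the farthest (1.83, 1.27 to 2.67) by 116 and the nearest (1.2, 0.748 to 1.94) by 3939. By Smc3 ratio, the middle place (2.21, 1.4 to 3.55) was matched or exceeded by 8 of 24957 pairs, the nearest (1.19, 0.685 to 2.09) by 1323 and the farthest (1.33, 0.694 to 2.61) by 637. A pair exists only where both lines had a peak, and the typical ratio of a pair differed with its WT fragments. Against pairs within 20% of the same WT fragments, the CTCF ratios of the nearest, middle and farthest places lay above 93.5%, 99.6% and 99.8% of pairs. The Smc3 ratios of the nearest, middle and farthest places lay above 72.4%, 99.9% and 43.1% of such pairs. The farthest Smc3 place, compared with 274 pairs, was thus not high for its WT level.

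The order of sites within each line gave another view of the same fragments. Ranked by fragments among all CTCF pairs, the nearest, middle and farthest places stood at percentiles 35.1, 63.1 and 58.4 in C59, and at 16, 40.8 and 28.3 in WT. Among all Smc3 pairs they stood at 21.5, 83.6 and 3.76 in C59, and at 3.77, 6.55 and 0.174 in WT. Pairs this low in WT have little room below them, so the Smc3 percentiles of the nearest and farthest places are given as a description and no shift is read from them. The other 12 CTCF pairs kept closer percentiles in the lines, such as 88.5 in C59 and 87 in WT at 137 kb, while other Smc3 pairs moved as well, with 24.5 in C59 and 50.9 in WT at 97.6 kb. The background implied at the CTCF summits upstream of H19 was 3.56, 4 and 3.57 in C59 and 5.22, 6.09 and 4.27 in WT, beside floors of 3.56 and 4.27 for the whole lists. The background was thus lower in C59 at all 3 places, as was the floor of the C59 list. At the farthest place it stood at or near the floor in both lines. The part of the background in the fold values was not tested.

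**Figure D4:**
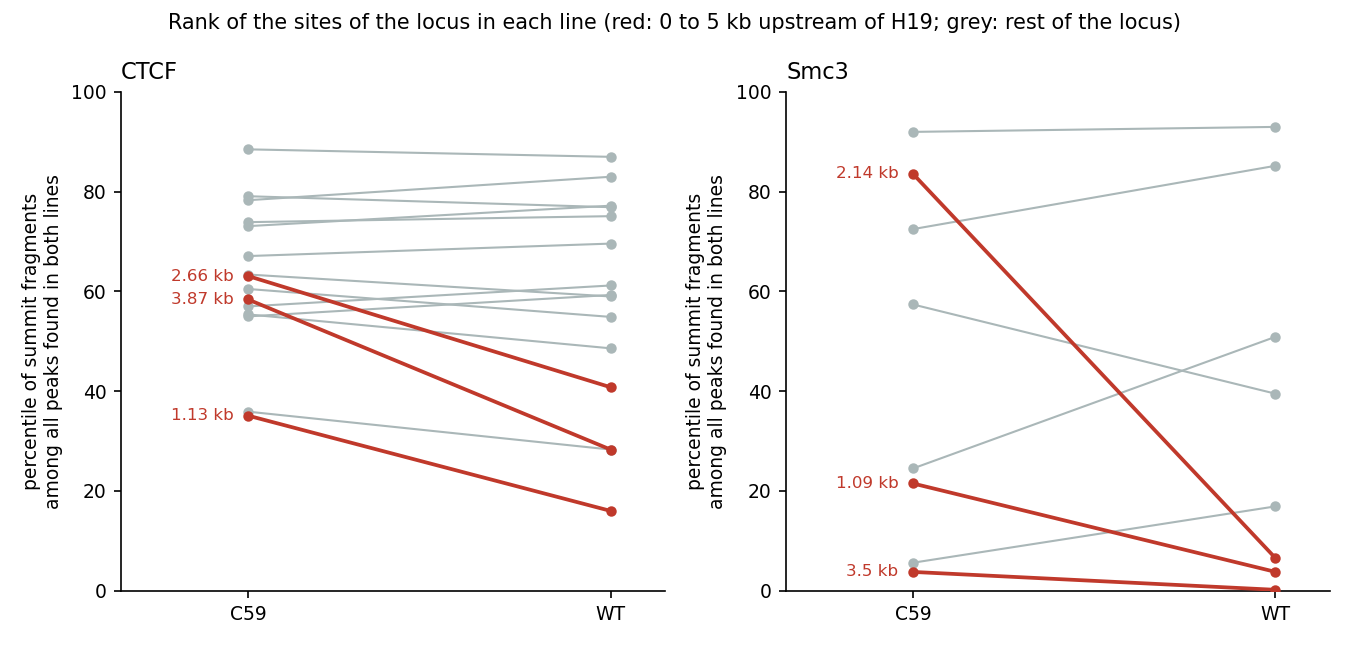
Percentile of summit fragments among all CTCF (left) and Smc3 (right) pairs of peaks, in C59 and in WT, for each pair of the locus (lines). The places upstream of H19, labelled by kb, stand at 35.1, 63.1 and 58.4 for CTCF in C59, against 16, 40.8 and 28.3 in WT.

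In the middle place the called summits of Smc3 and CTCF lay apart. The Smc3 summit lay at 2.16 kb in C59 and 2.14 kb in WT, 487 bp and 519 bp nearer to H19 than the CTCF summit of the same line. Over all Smc3 peaks on a CTCF peak, the median distance between summits was 25 bp in C59 and 28 bp in WT, and 2.36% and 3.16% of peaks had a distance at least as large. The CTCF peak there was 1133 bp wide in C59 and 1060 bp wide in WT, against medians of 537 bp and 550 bp over the lists. Over Smc3 peaks on such wide CTCF peaks the median distance was 28 bp in both lines, and the share with so large a distance was not computed for them. The Smc3 peak of the middle place was itself 882 bp wide in C59 and 921 bp in WT, against list medians of 398 bp and 463 bp. In each line it covered the CTCF summit. The lists give a single summit per peak, so a further CTCF summit inside the wide CTCF peak would not be seen. At the farthest place the summits were 79 bp apart in C59 and 367 bp in WT, and at the nearest 26 bp and 32 bp.

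The bodies of Igf2 and Igf2os held no peak in C59, and weak peaks in WT. In WT, CTCF stood inside Igf2 at 81.1 kb (142659092 to 142659370, 26 fragments, fold 5.13) and at 86.1 kb, inside both genes (142663808 to 142664459, 29 fragments, fold 5.7). A WT Smc3 peak at 82.6 kb (142660524 to 142660990, 16 fragments, fold 2.79) was the 1 Smc3 peak of the locus without CTCF. Past the end of Igf2os, WT CTCF (31 fragments, fold 5.98) and WT Smc3 (18 fragments, fold 3.35) stood together at 93.1 and 93.2 kb. Of WT CTCF peaks within 20% of 26, 29 and 31 fragments, 42.6%, 53.3% and 59.6% had a C59 peak, and of WT Smc3 peaks within 20% of 16 and 18 fragments, 3.41% and 4.53% had. Matched within 20% on fold instead, the shares were 55.2%, 66.5% and 71.7% for the CTCF peaks and 9.17% and 11.2% for the Smc3 peaks. In C59 the longest run without CTCF reached from 32.6 to 94.2 kb (61.6 kb), across the whole of Igf2, and in WT from 32.6 to 81.1 kb (48.5 kb). Of gaps between neighbouring autosomal CTCF summits, 11% were as long in C59 and 11.8% in WT. Where a list has no peak, the signal was under the level the authors set for calling, and some binding may remain.

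Between Igf2os and Ins2 stood 2 places that both lines shared, and Ins2 itself held no summit. The first, at 94.2 kb (142671707 to 142672816), had 135 CTCF fragments in C59 (113 to 160) and 171 in WT (146 to 199). Its Smc3, at 94.1 kb, had 77 fragments in C59 (60.8 to 96.2) and 107 in WT (87.7 to 129), the most of any Smc3 peak of the locus in either line. Its Smc3 fold of 6.04 in C59 stood on a background of 9, and the fold of 15.6 in WT on a background of 5.94. The second, at 97.7 kb and 2784 bp in C59 and 2769 bp in WT from Ins2 (142675479 to 142676226), had 82 CTCF fragments in C59 (65.2 to 102) and 113 in WT (93.1 to 136). It had 32 Smc3 fragments in C59 (21.9 to 45.2) and 57 in WT (43.2 to 73.9). There the CTCF folds of 17.5 in C59 and 9.97 in WT ran against the fragments, with a background of 3.56 in C59 and 10.4 in WT.

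**Figure D5:**
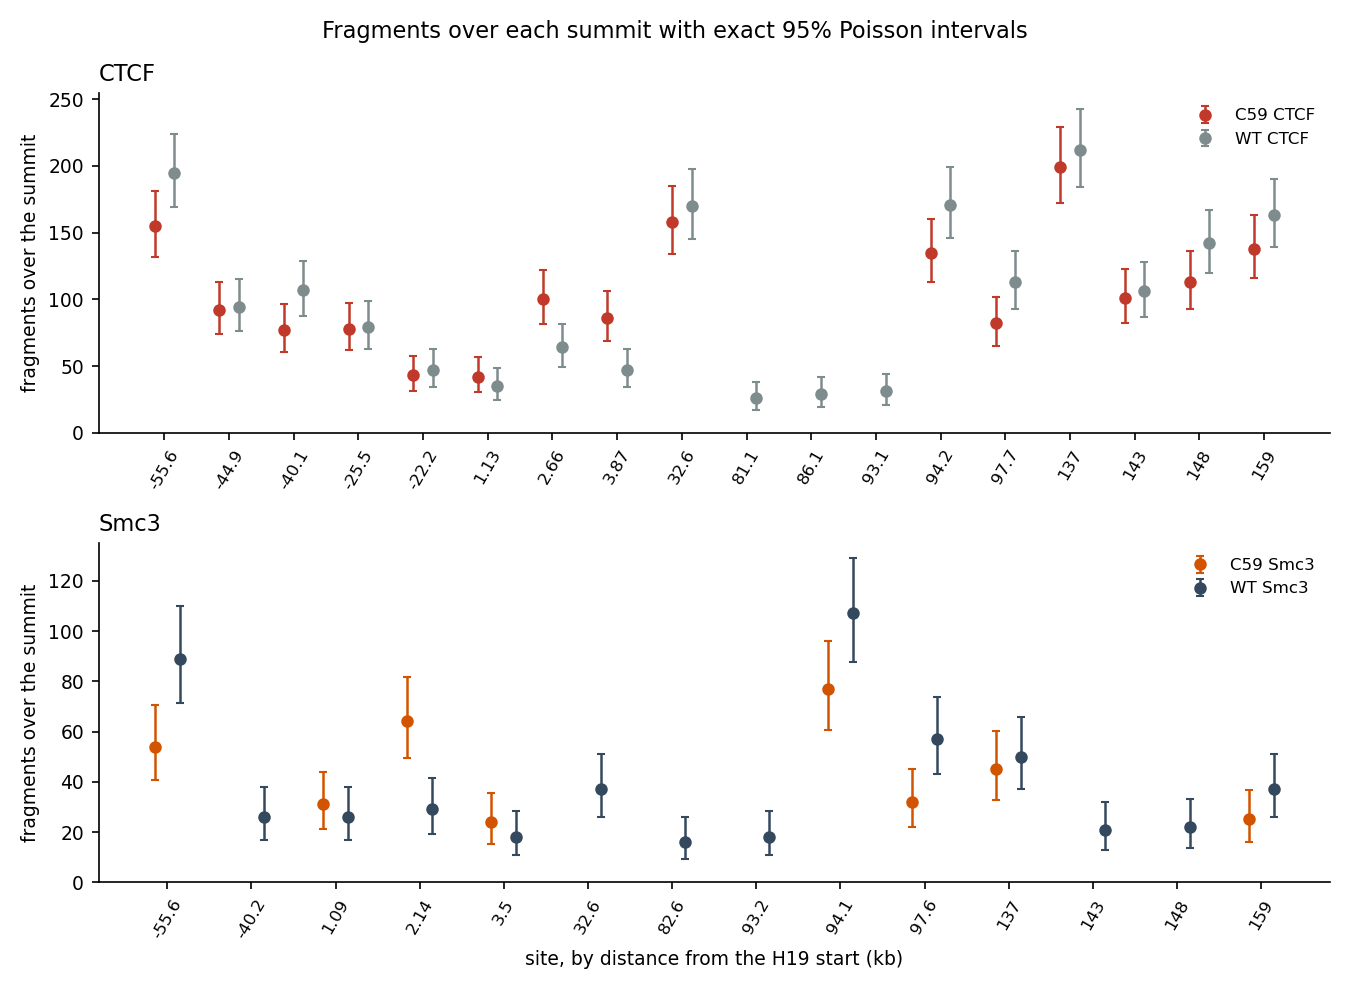
Fragments over the CTCF (upper) and Smc3 (lower) summit of each place, with exact 95% Poisson intervals, C59 left and WT right, by distance from the H19 start in kb. C59 stands above WT at the places upstream of H19 and below it at every other place with both points, and a missing point means no peak in that list.

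The strongest CTCF site between H19 and Igf2 kept CTCF in both lines and had Smc3 in WT alone. It lay at 32.6 kb (142610365 to 142611034), inside Gm33148, where the promoter sequence printed above holds the summits. CTCF there had 158 fragments in C59 (134 to 185) and 170 in WT (145 to 198), with folds of 32.2 and 32.5, the highest of the locus in each list. Smc3 there had 37 fragments in WT (26.1 to 51) and a fold of 7.36, and no peak in C59. Of WT Smc3 peaks within 20% of 37 fragments, 48.6% had a C59 peak, and of those within 20% of its fold, 72.7% had. The C59 Smc3 list left 90.4 kb without a peak, from 3.73 to 94.1 kb, and the longest run in the WT Smc3 list was 50 kb. Of gaps between neighbouring autosomal Smc3 summits, 26.9% were as long in C59 and 25.2% in WT.

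Towards the enhancer side of H19, 5 CTCF places stood in both lines. The strongest, at -55.6 kb (142522189 to 142522904, outside genes), had 155 CTCF fragments in C59 and 195 in WT, and it had 54 Smc3 fragments in C59 (40.6 to 70.5) and 89 in WT (71.5 to 110). Inside Mrpl23, the place just past its start (142532667 to 142533595) had 92 CTCF fragments in C59 and 94 in WT, and no Smc3. The other Mrpl23 place, at -40.1 kb (142537599 to 142538540), had 77 CTCF fragments in C59 and 107 in WT, with Smc3 in WT alone (26 fragments). Inside Nctc1, CTCF had 78 fragments in C59 and 79 in WT at -25.5 kb, and 43 in C59 and 47 in WT at -22.2 kb, with no Smc3 in either line. Of the 5 CTCF places on this side, 1 held Smc3 in C59 and 2 did in WT. Over each whole list 30% of C59 CTCF peaks and 44.3% of WT CTCF peaks did, so no lack of Smc3 is read here.

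Beyond Ins2, 4 CTCF places lay inside Gm39116. The first, at 137 kb (142714423 to 142715325), had the most CTCF fragments of the locus, 199 in C59 (172 to 229) and 212 in WT (184 to 243), with 45 Smc3 fragments in C59 and 50 in WT. The places at 143 and 148 kb had 101 and 113 CTCF fragments in C59, and 106 and 142 in WT, with Smc3 in WT alone (21 and 22 fragments). Of WT Smc3 peaks within 20% of those levels, 7.75% and 8.92% had a C59 peak, and of those within 20% of their folds, 19.8% and 13.2% had. The last, at 159 kb (142736815 to 142738467), had 138 CTCF fragments in C59 and 163 in WT. Its wide CTCF peak covered 1 Smc3 peak in C59 (25 fragments) and 2 in WT (37 and 25 fragments).

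Smc3 of the locus lay almost wholly on CTCF. All 8 C59 Smc3 peaks overlapped a C59 CTCF peak, against 97.9% of the whole list, and 14 of 15 WT Smc3 peaks overlapped a WT CTCF peak, against 95.2%. Across the lines, all 8 C59 Smc3 peaks overlapped WT CTCF, against 98%, and 13 of 15 WT Smc3 peaks overlapped C59 CTCF, against 92.8%. In the other direction 8 of 15 C59 CTCF peaks held Smc3 (53.3%, 26.6 to 78.7), against 30%, and 13 of 18 WT CTCF peaks did (72.2%, 46.5 to 90.3), against 44.3%. The interval of the locus included the share of the whole list in C59 and lay just above it in WT. CTCF peaks of the locus were stronger than those of the lists, with median folds of 18.7 against 11.2 in C59 and 14.1 against 9.5 in WT. Shares among CTCF peaks of like strength were not computed, and neighbouring peaks are not independent draws, so no trait of the locus is read from this. Strong CTCF and Smc3 did not always go together in C59. The places upstream of H19, at percentiles 35.1, 63.1 and 58.4 of CTCF fragments among C59 pairs, held Smc3. The site of highest CTCF fold, in Gm33148, stood at 79.1 and held no Smc3 peak in C59. In WT that site had Smc3 with 37 fragments, more than the 26, 29 and 18 at the places upstream of H19.

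Other genes of the insulin and IGF pathway were taken from a list of 20: ligands, receptors, adaptors, binding proteins of IGFs and binding proteins of Igf2 RNA. Within 1 kb of a gene end, 6 had CTCF in C59 and 10 in WT, against 32.9% and 38.3% of 21887 protein-coding genes. Smc3 stood at 3 of them in C59 and at 6 in WT, against 11.2% and 20.8%. The growth factor and insulin ligands Igf1 and Ins1, and Igf2r, the receptor that clears Igf2, had neither protein at an end, nor had H19, Igf2 and Ins2. Ends are those of the whole gene span, so the WT peaks near promoters inside Igf2 do not count here. Igf1r, the receptor through which Igf2 signals, had weak CTCF (fold 5.48 in C59 and 4.56 in WT), and the insulin receptor Insr had CTCF in WT alone (5.6). The strong sites of the list were at IGF binding proteins and Igfals, the subunit that stabilises IGFs in blood. Igfbp3 had CTCF folds of 33.4 in C59 and 30.8 in WT and Smc3 folds of 9.77 in C59 and 14.5 in WT, and Igfbp4 had CTCF folds of 16.2 in C59 and 30.1 in WT and Smc3 folds of 4.76 in C59 and 9.49 in WT. Igfals had CTCF (29.6 in C59 and 23.5 in WT) and Smc3 (6.22 in C59 and 8.48 in WT) in both lines, and Igfbp7 had CTCF in both lines (28.5 in C59 and 36.1 in WT) and Smc3 in WT alone (4.58). Irs1, an adaptor of both receptors, had CTCF folds of 8.87 in C59 and 13.7 in WT. Igfbp5 (3.54), Igf2bp2 (6.18) and Igf2bp1 (4.57) had CTCF in WT alone, and Igfbp5 (2.92) and Igf2bp1 (3.11) had Smc3 in WT alone. Of these genes Igf1, Ins1, Igf2r, Igf1r, Irs1 and the CTCF of Igfbp5 fell outside the naming rule and were added after their values were seen.

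By the strongest peak within 5 kb of a gene end, H19 stood at percentiles 68.7 for C59 CTCF, 48.9 for WT CTCF, 86.9 for C59 Smc3 and 50.4 for WT Smc3, each within its own list. The protein-coding genes with the most similar percentiles over the 4 lists, by Euclidean distance, were Rfc4 on chromosome 16 (13.4 points), Cipc on chromosome 12 (16.4) and Esrp1 on chromosome 4 (18). Rfc4, a subunit of the clamp loader of DNA replication, had CTCF folds of 16.3 in C59 and 11.8 in WT and Smc3 folds of 9.18 in C59 and 6.64 in WT. Percentiles from lists of different lengths cannot be read as a change between the lines, and the likeness rests on 4 libraries.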

How the data were processed

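Cells were cross-linked for 5 minutes with 1% formaldehyde and the ChIP-seq libraries read single-end over 50 bp, per the labels' protocols. Of 8 libraries, the input and IgG libraries of both lines were not analysed here. The protocol text names anti-Rad21, whereas the antibody label of these libraries names Smc3, which was followed. Per the submitters' processing notes, which give no role or order, the tools were MACS2 (version 2.1.0.20140616), Bowtie (0.12.8), deepTools (2.4.1), CASAVA and FastQC (0.10.1), and the build was mm10. The control, threshold and duplicate filter behind each list are not given in the sources used here.

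The pileup signal, the p-value and q-value (linear scale), the fold enrichment (a ratio) and the length and summit of each peak are as the authors deposited them. Positions count from 1. One fragment was worth 0.961 pileup units in C59 CTCF, 0.772 in C59 Smc3 and 1 in both WT lists. Dividing by it gave fragments, and 100% of pileups lay within 0.05 units of a whole multiple. Fold was taken as pileup plus 1 over background plus 1, which gives the background at a summit, and the floor of a list is the median of its lowest decile. The lists carry no read totals, so depth enters only through fragments.

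Lists were compared in Python 3.11.15 with scipy 1.17.1, pandas 2.3.3 and numpy 2.4.6. Figures used matplotlib 3.10.9. The overlap search was tested on simulated data. Ratio intervals come from the exact binomial interval of the C59 share of fragments. PCR copies are not independent molecules, so intervals cover counting error only. Genes and promoters came from RefSeq tables of GRCm38.p6, without exons, so peaks were placed inside or outside gene spans. The naming rule took all genes of the window, the 3 genes most like H19 and IGF pathway genes with a peak at an end (per protein up to 4 in both lines, by WT fold, and up to 3 in 1 line alone). Alternatives were other overlap rules, a stricter q, equal list lengths and a smaller window. Members and lists were chosen with earlier results of these data known.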

Additional observations from a re-analysis of the deposited data

How the results depend on the processing

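No paired analysis was possible because each line and antibody gave 1 library and the labels carry no replicate numbers. Of 54 alternative values for 12 results, 39 stayed within the interval, or within 1.5 times the count, of the value reported. The ratios upstream of H19 stayed above 1 in all alternatives run, which for those with a place left out was fixed in advance. Every place there had a ratio above 1 for both proteins. With pileup over the background floor of each list, chosen after seeing the data, the ratios were 1.8 for CTCF and 1.47 for Smc3. That setting multiplies every ratio of a protein by the same factor, so the order of the pairs stays as it was. With each place left out in turn, also chosen after seeing the data, the CTCF ratio ranged from 1.43 (without the farthest place) to 1.68. The Smc3 ratio ranged from 1.25 (without the middle place) to 1.87.

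With each list held to its 25734 strongest peaks, the locus kept 6 C59 and 6 WT CTCF peaks and 5 WT Smc3 peaks. The shares then were 100% of WT CTCF and 80% of WT Smc3 peaks found in C59, 50% of C59 Smc3 peaks found in WT and 50% of C59 Smc3 peaks on CTCF. That limit shortens every list but C59 Smc3. At a −log10 q of at least 10 there remained 3 C59 and 8 WT Smc3 peaks, and 100% of the WT ones lay on CTCF. Under an overlap of 50% of both peaks, 60% of WT Smc3 peaks lay on CTCF. The smaller H19 to Ins2 window held 6 C59 CTCF, 9 WT CTCF, 5 C59 Smc3 and 8 WT Smc3 peaks, by its construction. With summits within 200 bp in place of overlap, 7 of 8 C59 Smc3 peaks were found in WT. The peak not found was at the farthest place upstream of H19, where the summits lay 225 bp apart. The lists begin at 13 fragments for CTCF in both lines, and at 17 in C59 and 13 in WT for Smc3, and the part of depth in the missing weak places was not tested.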
